A study of Mus musculus with 16 samples.

Results

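Expression of 10 genes of the mouse myeloid programme was examined: the granule enzyme genes Mpo, Elane, Prtn3, Ctsg and Lyz1, the growth factor receptor genes Csf1r and Csf3r, and the transcription factor genes Spi1, Cebpa and Cebpe. The genes were chosen by name, and every probe set whose single gene symbol was one of them was taken. This gave 13 probe sets of 9 genes, among 18193 genes with such a probe set. Lyz1 and Csf1r had 3 probe sets each and the other 7 genes had 1. Cebpe was not analysed here.

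The 16 Affymetrix arrays, all of wild-type C57Bl6 cells, formed 7 groups. There were 2 arrays each of induced pluripotent stem cells (iPSC) of aged and of young haematopoietic origin, and 2 arrays of embryonic stem cells (ESC), 1 from Open Biosystems and 1 from Primogenix. These pluripotent cells were grown on mouse embryonic fibroblast (MEF) feeders. Haematopoietic stem cells (HSC) were sorted from recipients of aged or of young bone marrow (transplanted HSC, 2 arrays each), and from the marrow of male steady-state mice aged 21 to 24 months (aged, 3 arrays) or 3 to 4 months (young, 3 arrays). The labels give the age of the transplanted HSC, the iPSC and the ESC as not applicable, and do not give the time after transplantation, the recipients or the way the iPSC were made. Arrays within a group are biological replicates by their labels, apart from the ESC, whose lines came from different suppliers, and p-values cover only the spread among these arrays. RNA of 10000 cells was labelled for each array.

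Median intensity per array lay between 43.52 and 51.94. On all 10 HSC arrays, 8 of 8 measured HSC markers lay above the array's median, and on all 6 iPSC and ESC arrays, 9 of 9 pluripotency markers did so. Transplanted arrays differed more among themselves than steady-state arrays: the median gene's SD within a group was 0.199 log2 in aged and 0.266 in young transplanted HSC, against 0.149 in aged and 0.163 in young steady-state HSC. All levels below are log2 of the deposited intensity, and all differences are log2 differences of such levels. A gene was called at an adjusted p under 0.05. The levels of different probe sets are not compared with each other, since probes differ in brightness.

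Neutrophils and their precursors pack antimicrobial proteins into granules that form in a set order during maturation. Myeloperoxidase (Mpo), which makes hypochlorous acid, and the serine proteases neutrophil elastase (Elane), proteinase 3 (Prtn3) and cathepsin G (Ctsg) belong to the primary granules, which form first, at the promyelocyte stage, while lactoferrin and other proteins of the later granules follow. Csf1r and Csf3r are the receptors for macrophage colony-stimulating factor and granulocyte colony-stimulating factor. Spi1 encodes PU.1, and Cebpa encodes C/EBP-alpha, the factors that drive commitment to the myeloid lineages and bind near many granule genes. In HSC, low expression of such genes is known as myeloid priming.

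The promoters of the 4 primary granule genes are shown because these genes share a function. Prtn3 and Elane are also direct neighbours on chromosome 10, with 0 genes between them and starts 6645 bases apart. Only Prtn3 was called with age, but the Elane probe set gave similar levels in steady-state HSC and in ESC. Each line holds the 250 bases before the gene's start, 5' to 3' on the gene's own strand, from RefSeq on build GRCm38.p6. Capitals mark GAGGAA, the core of a PU.1 site, searched on both strands. TTGCNNAA, a C/EBP site core, was searched in the same way and matched none of the 4. The windows are chr10:79879417-79879666 (plus strand) for Prtn3, chr10:79886062-79886311 (plus) for Elane, chr11:87793534-87793783 (plus) for Mpo and chr14:56102575-56102824 (minus) for Ctsg.
Prtn3: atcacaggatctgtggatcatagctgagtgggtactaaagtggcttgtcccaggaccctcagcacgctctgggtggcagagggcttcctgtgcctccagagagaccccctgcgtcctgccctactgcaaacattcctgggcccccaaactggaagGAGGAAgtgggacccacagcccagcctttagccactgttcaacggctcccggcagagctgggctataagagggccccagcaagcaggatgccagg
Elane: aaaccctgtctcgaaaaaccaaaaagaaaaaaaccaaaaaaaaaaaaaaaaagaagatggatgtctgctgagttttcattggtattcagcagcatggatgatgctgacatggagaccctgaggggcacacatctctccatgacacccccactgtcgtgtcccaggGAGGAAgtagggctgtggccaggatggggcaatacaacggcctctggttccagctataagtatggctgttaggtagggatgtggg
Mpo: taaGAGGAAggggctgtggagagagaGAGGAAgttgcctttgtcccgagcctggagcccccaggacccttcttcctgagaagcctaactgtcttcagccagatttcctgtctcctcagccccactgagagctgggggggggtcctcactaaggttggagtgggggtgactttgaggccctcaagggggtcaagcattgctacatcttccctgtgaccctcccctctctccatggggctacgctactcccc
Ctsg: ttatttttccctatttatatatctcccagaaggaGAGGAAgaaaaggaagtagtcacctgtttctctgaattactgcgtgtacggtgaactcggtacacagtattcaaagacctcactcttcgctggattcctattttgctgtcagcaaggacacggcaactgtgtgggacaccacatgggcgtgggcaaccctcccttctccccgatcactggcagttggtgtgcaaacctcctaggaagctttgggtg

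GAGGAA lay 95 to 90 bases before the start of Prtn3 and 85 to 80 bases before the start of Elane. Mpo held 2 matches, at 247 to 242 and 224 to 219 bases before its start, and Ctsg held 1, at 216 to 211 bases. Windows on chromosome 18, where Csf1r lies, were left out throughout. Of the 9 genes, 7 had a promoter window among those used, and Csf1r and Spi1 had none. The Csf3r window, chr4:126024409-126024658 (plus strand), lay after the start of the whole gene at 126023441, unlike the 4 printed windows. GAGGAA was present in 5 of these 7 windows, against 23.3% of 32851 promoter windows of the same length. TTGCNNAA was present in 1 of the 7, that of Lyz1, against 9.56% of all windows. The printed windows held no TTGCNNAA, so no match of one motif overlapped a match of the other there. A match describes only the letters in the window.

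**Figure D1:**
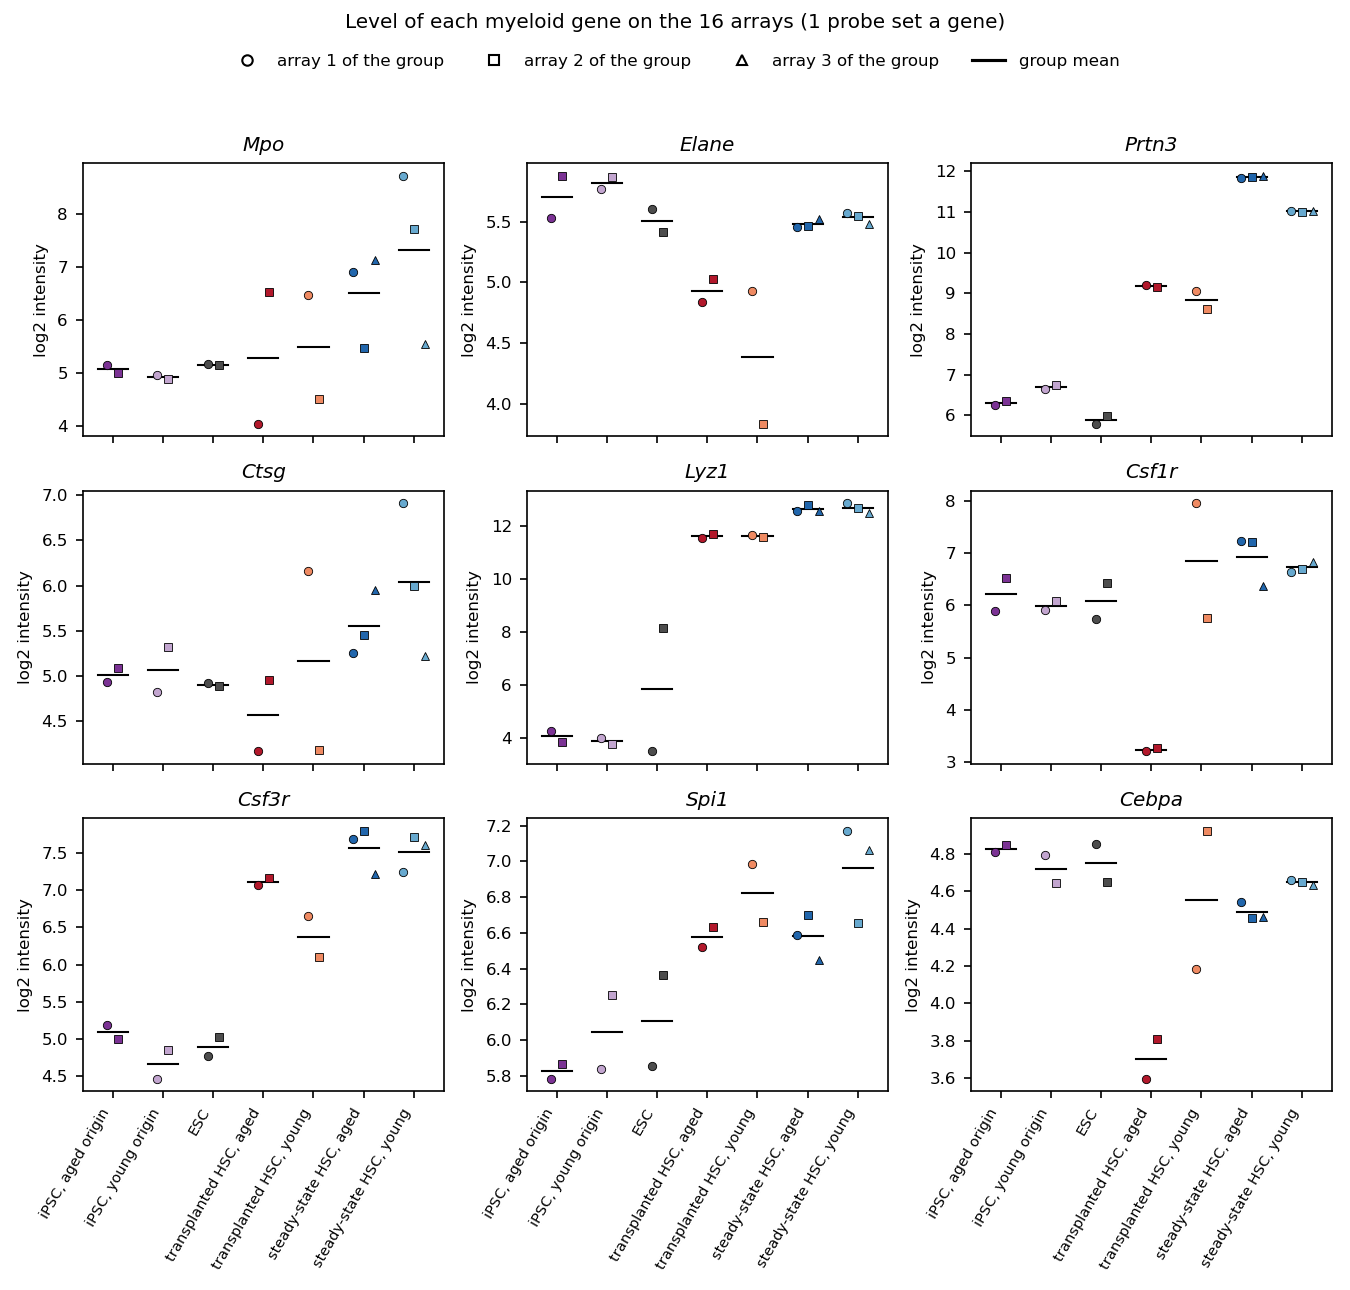
Log2 intensity of 1 probe set for each of the 9 genes on every array, with 1 point per array and a bar for the group mean; groups run from aged iPSC on the left to young steady-state HSC on the right. Prtn3 stands at 11.83 to 11.89 in aged and 11.00 to 11.03 in young steady-state HSC, and the Mpo points of the young steady-state group spread from 5.55 to 8.72.

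Prtn3, the gene of proteinase 3, was the only gene of the set called between aged and young steady-state HSC. It had levels of 11.83, 11.87 and 11.89 in aged and 11.02, 11.00 and 11.03 in young steady-state HSC. Every aged array lay above every young array, and the arrays within a group lay within 0.1 log2 of each other. Prtn3 averaged 11.86 ± 0.03 in aged and 11.02 ± 0.02 in young steady-state HSC (SD, n = 3 each), a difference of 0.85 (SE 0.16, 95% confidence interval 0.50 to 1.20, adjusted p = 0.0312), or 1.80-fold. This was 1 of 8 genes tested, where 1.18% of all 13645 genes were called. In bulk samples such as these, fewer cells of a type and less RNA per cell cannot be told apart. The call was lost, with the same size of difference, without any single one of the 6 steady-state arrays (adjusted p = 0.125 to 0.158).

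Elane, whose start lies next to Prtn3, gave levels of 5.46, 5.46 and 5.52 in aged and 5.58, 5.55 and 5.48 in young steady-state HSC. The groups overlapped, and the difference was -0.05 (SE 0.24, adjusted p = 1). The ESC arrays stood at 5.41 and 5.60 for Elane, so its probe set showed no signal above ESC and could miss an age difference. Mpo gave levels of 6.91, 5.47 and 7.13 in aged and 8.72, 7.71 and 5.55 in young steady-state HSC. The Mpo groups overlapped: young replicate 1 was highest, and aged replicate 2 and young replicate 3 were lowest. The mean Mpo difference was -0.82 (SE 0.90, adjusted p = 1). Ctsg gave levels of 5.26, 5.45 and 5.95 in aged and 6.91, 5.99 and 5.22 in young steady-state HSC, with the highest and the lowest value both in the young group. Its difference was -0.49 (SE 0.53, adjusted p = 1). The 95% confidence intervals, -2.81 to 1.17 for Mpo and -1.66 to 0.69 for Ctsg, held 0 as well as lower levels in aged HSC by more than 1 log2. Lyz1 levels of 12.56, 12.76 and 12.55 in aged and 12.84, 12.65 and 12.48 in young steady-state HSC overlapped in the same way.

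The other neutrophil granule genes, a list of 18 genes of which 14 were tested, gave no call with age in steady-state HSC. Over all genes 1.18% were called there. Their median difference was 0.06, against -0.02 over all genes. The summed intensity of the 17 listed genes with a probe set was 10169 to 12449 in aged and 10419 to 14216 in young steady-state HSC, so the groups overlapped in the sum of these genes. Of the 9 tested monocyte and macrophage markers, 1 fell, the scavenger receptor gene Cd163. Cd163 had levels of 3.26, 4.20 and 4.08 in aged and 5.80, 6.10 and 6.16 in young steady-state HSC. Every aged level lay under 4.57, the level marking the dimmest 25% of genes in that group. Its transplanted mean was also among the dimmest 25%. Cd163 thus passed the filter through young steady-state HSC and is given as levels alone. The summed intensity of the 12 monocyte markers overlapped, at 1984 to 3625 in aged and 2197 to 3338 in young steady-state HSC.

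Some markers of other blood cells were called with age in steady-state HSC, where 1.18% of all genes were called. Of 7 tested megakaryocyte and platelet markers 2 rose, Vwf by 2.10 and Itgb3 by 1.55, while 3 lay below 0 without a call (Pf4 at -0.71, Ppbp at -0.68 and Treml1 at -0.60), with a median of 0.13. The list summed to 7802 to 8912 in aged and 3838 to 4498 in young steady-state HSC. Of 5 tested erythroid markers 1 fell, Gata1 (difference -1.14), and 2 lay above 0. The list of 6 summed to 402 to 522 in aged and 670 to 766 in young steady-state HSC. None of the 8 HSC markers was called, but all 8 lay above 0, with a median of 0.34 against -0.02 over all genes. The HSC markers summed to 18783 to 19647 in aged and 15215 to 17651 in young steady-state HSC. None of the tested B cell or T cell markers was called. The part of these cell types in the Prtn3 difference was not tested.

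**Figure D2:**
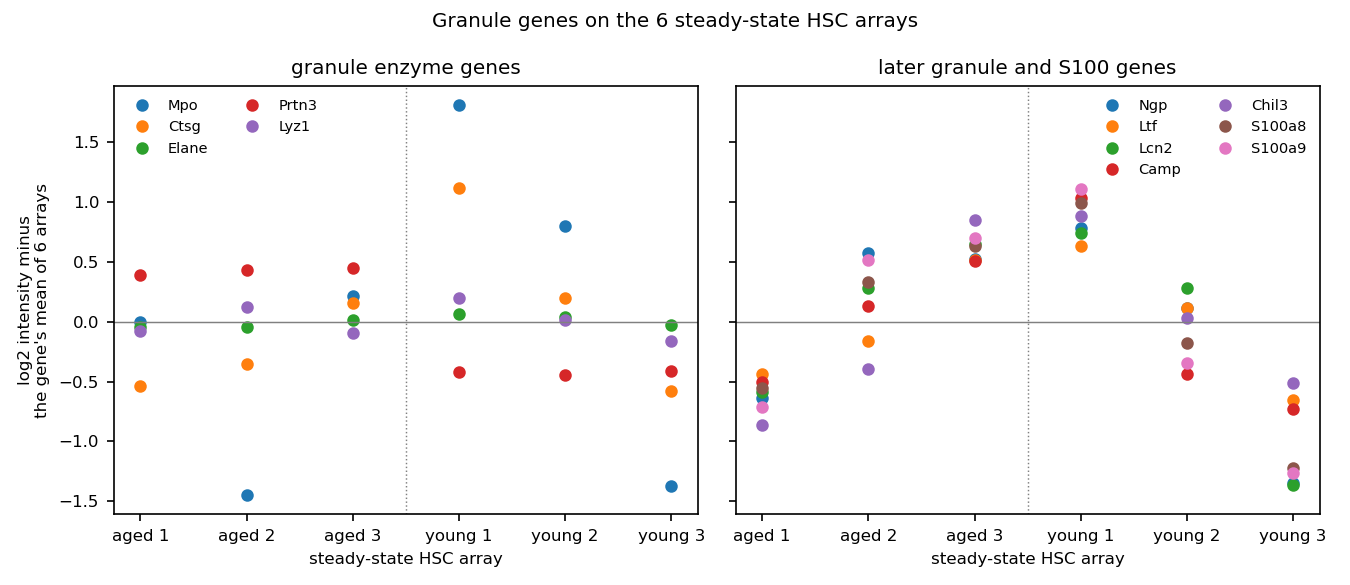
Log2 intensity on the 6 steady-state HSC arrays, aged on the left and young on the right, with 1 point per gene and array, given as the difference from the gene's mean over the 6 arrays; the left panel holds the 5 granule enzyme genes and the right panel 7 genes of later granules and S100 proteins, chosen after their values were seen. Young replicate 1 is the highest array for all 7, and Prtn3 is the gene that separates by age.

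Mpo and Ctsg varied between individual steady-state arrays more than the other granule enzyme genes. Over the 6 steady-state arrays, Mpo spanned 3.25 log2 (9.51-fold) and Ctsg spanned 1.69 (3.23-fold), while Prtn3 spanned 0.89, Lyz1 spanned 0.36 and Elane spanned 0.12. Of the 14 other granule genes tested, 11 spanned more than 1 log2. Among these 11, young replicate 1 was the highest array for 9 and young replicate 3 was the lowest for 8. Ngp, the gene of neutrophilic granule protein, had levels of 8.49, 9.70 and 9.65 in aged and 9.91, 9.24 and 7.78 in young steady-state HSC. Ltf, the lactoferrin gene of the secondary granules, had levels of 6.76, 7.03 and 7.72 in aged and 7.83, 7.31 and 6.54 in young steady-state HSC. Both genes repeat the order of the young arrays seen for Mpo and Ctsg. The aged arrays differ in order: aged replicate 2 was the lowest array for Mpo and the highest aged array for Ngp. These arrays are replicates of 1 group, and the part of granule-containing cells among the sorted cells in this spread was not tested.

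In transplanted HSC, Prtn3 had levels of 9.21 and 9.14 in the aged and 9.05 and 8.61 in the young group. Both aged arrays lay above both young arrays, but the difference of 0.35 (SE 0.19, adjusted p = 0.442) did not pass the test. The age difference in transplanted HSC minus that in steady-state HSC was -0.50 for Prtn3 (SE 0.25, adjusted p = 0.572), so the age differences of the settings were not shown to differ. None of the 8 genes tested was called in this comparison of age differences, where 0.125% of all genes were called and 1328 genes had an unadjusted limma p under 0.05. Averaged over both settings, Prtn3 was higher in aged HSC by 0.60 (SE 0.13, adjusted p = 0.0439). It was 1 of 2 calls among the 8 genes in that averaged comparison, where 1.82% of all genes were called. The averaged call of Prtn3 was lost without any single array of steady-state or of aged transplanted HSC (adjusted p = 0.0652 to 0.126).

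Mpo and Ctsg again varied within a group after transplantation. Mpo had levels of 4.04 and 6.53 in aged and 6.46 and 4.51 in young transplanted HSC. Ctsg had levels of 4.16 and 4.96 in aged and 6.16 and 4.18 in young transplanted HSC. For both genes aged replicate 1 and young replicate 2 were the low arrays. Elane had levels of 4.84 and 5.03 in aged and 4.93 and 3.84 in young transplanted HSC, which overlapped. The 14 other granule genes gave no call with age in transplanted HSC, where 1.35% of all genes were called. Their median difference was 0.34, against -0.02 over all genes. S100a8 and S100a9, the calprotectin genes of neutrophils and monocytes, were singled out after their values were seen. S100a8 stood at 5.43 and 9.14 in aged and 4.90 and 5.92 in young transplanted HSC. S100a9 stood at 6.06 and 9.65 in aged and 6.88 and 7.75 in young transplanted HSC. Aged replicate 2 was thus the highest transplanted array for S100a8 and S100a9. For Mpo it was highest too, but close to young replicate 1 (6.53 and 6.46). Young replicate 1 was the lowest transplanted array for S100a8 and the highest for Ctsg.

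Csf1r was the only gene of the set called between aged and young transplanted HSC, 1 of 8, where 1.35% of all genes were called. Its probe set 1419872_at had levels of 3.21 and 3.27 in aged and 7.95 and 5.75 in young transplanted HSC. Both aged arrays lay below both young arrays, and the young arrays lay more than 2 log2 apart. Csf1r averaged 3.24 ± 0.04 in aged and 6.85 ± 1.56 in young transplanted HSC (SD, n = 2 each), a difference of -3.61 (SE 0.56, adjusted p = 0.0206). The aged mean lay under the level marking the dimmest 25% of genes in that group, 4.51, so the size of the difference is uncertain. In steady-state HSC, Csf1r had levels of 7.23, 7.21 and 6.37 in aged and 6.65, 6.70 and 6.84 in young, which overlapped. The age difference in transplanted minus that in steady-state HSC was -3.82 (SE 0.73, adjusted p = 0.0977), which did not pass the threshold. With only the transplanted arrays in the fit, which are the arrays that spread most, the age difference of Csf1r had an adjusted p of 0.878. The call was also lost without aged transplanted replicate 2 (adjusted p = 0.0731) or young steady-state replicate 2 (adjusted p = 0.0524). The difference was -2.51 without young transplanted replicate 1 and -4.72 without young transplanted replicate 2.

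The other Csf1r probe sets were not called with age in transplanted HSC. Probe set 1419873_s_at had levels of 4.47 and 4.29 in aged and 5.33 and 4.76 in young transplanted HSC, lower in both aged arrays with no overlap, and a difference of -0.67 (adjusted p = 0.275 among 26209 probe sets). Probe set 1423593_a_at had levels of 5.23 and 5.38 in aged and 5.40 and 5.07 in young transplanted HSC, which overlapped, with a difference of 0.07 (adjusted p = 0.923). In the same fit of all probe sets, 1419872_at had an adjusted p of 0.0263. Among all genes with several tested probe sets, 57.9% had probe sets with opposite signs in this comparison. The averaged age difference of Csf1r was -1.70 (SE 0.36, adjusted p = 0.047), and combines the transplanted difference with a steady-state difference of opposite sign. It was called in 6 of 20 alternatives, with values from -2.25 to -0.62 and adjusted p up to 0.303. It was lost without any single array of steady-state or of aged transplanted HSC (adjusted p = 0.0814 to 0.127).

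**Figure D3:**
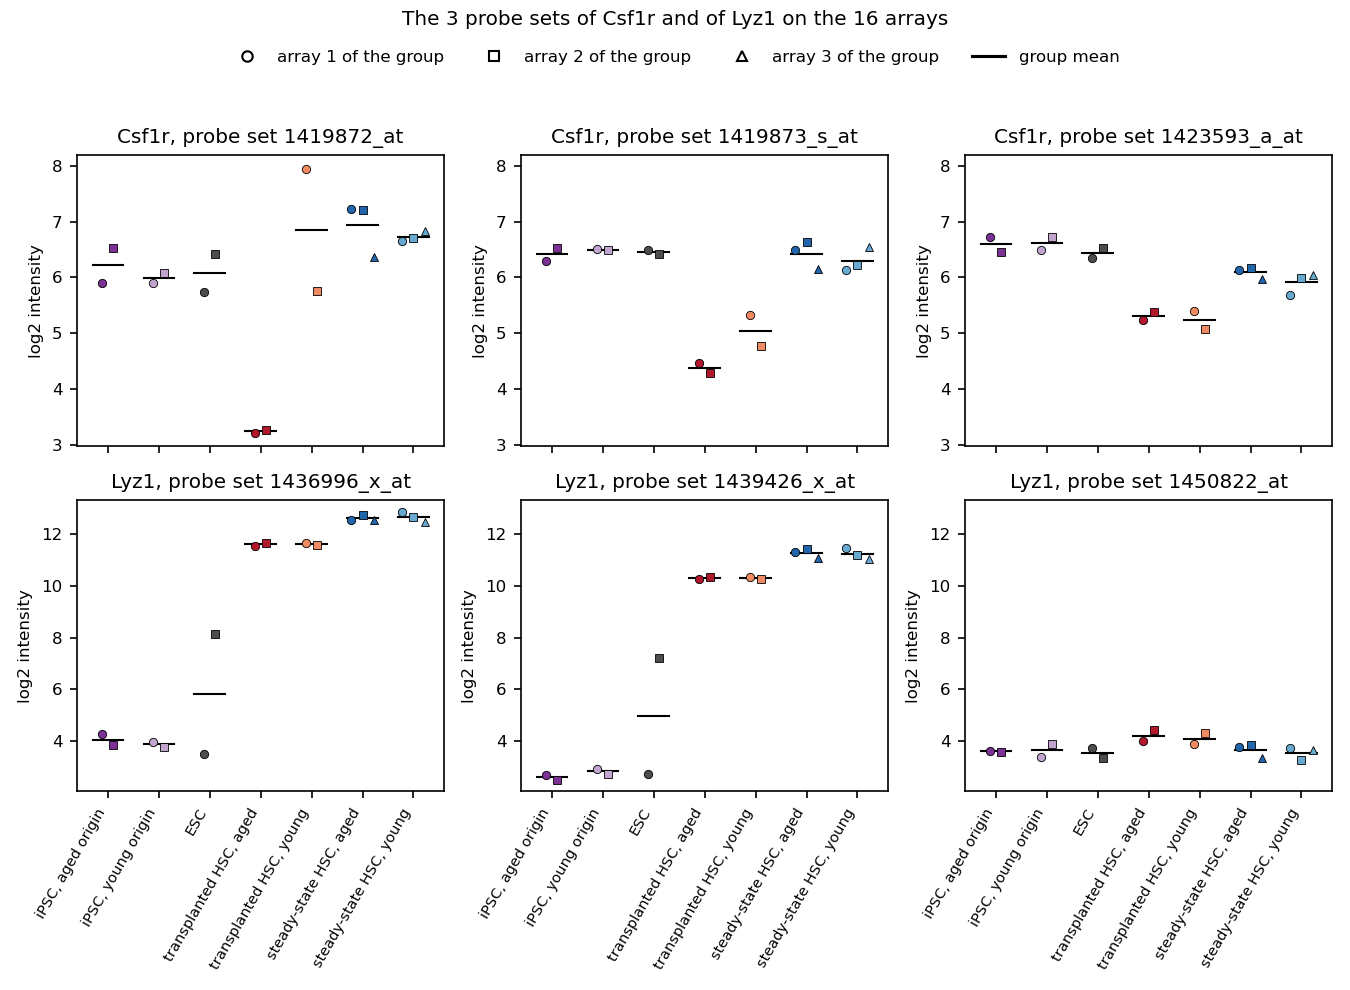
Log2 intensity of the 3 probe sets each of Csf1r and Lyz1 on every array, with 1 point per array and groups ordered from aged iPSC to young steady-state HSC. In aged transplanted HSC 1419872_at lies at 3.21 and 3.27 while 1423593_a_at lies at 5.23 and 5.38; the third Lyz1 probe set, 1450822_at, stays between 3.28 and 4.42 on all arrays.

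Csf3r, the granulocyte colony-stimulating factor receptor gene, had levels of 7.07 and 7.16 in aged and 6.65 and 6.10 in young transplanted HSC. Both aged arrays lay above both young arrays, and the difference of 0.74 (SE 0.27, adjusted p = 0.226) did not pass the test. In steady-state HSC, Csf3r levels of 7.68, 7.80 and 7.22 in aged and 7.24, 7.71 and 7.60 in young arrays overlapped. The difference between the age differences was 0.69 (SE 0.35, adjusted p = 0.578).

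Among 12 other tested myeloid receptor genes, 1 fell with age in steady-state HSC and another fell with age after transplantation, and none rose. Over all genes 1.18% were called with age in steady-state and 1.35% in transplanted HSC. Csf2rb, the common beta chain of the interleukin 3, interleukin 5 and GM-CSF receptors, had levels of 7.33, 6.46 and 6.45 in aged and 8.15, 8.34 and 8.50 in young steady-state HSC. The Csf2rb groups did not overlap (difference -1.58, SE 0.27, adjusted p = 0.0177). Fcgr2b, the inhibitory Fc gamma receptor gene, had levels of 4.44 and 4.16 in aged and 6.36 and 5.80 in young transplanted HSC (difference -1.78, SE 0.23, adjusted p = 0.0126). Both aged Fcgr2b levels lay under 4.51, the level marking the dimmest 25% of genes in that group, so the size of the difference is uncertain. Other tested probe sets of these genes were not called: -0.69 for Csf2rb in steady-state HSC, and -0.33 and 0.19 for Fcgr2b in transplanted HSC. The median difference of the receptor list was -0.05 in steady-state and -0.10 in transplanted HSC, against -0.02 over all genes in each.

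Spi1, the PU.1 gene, had levels of 6.59, 6.70 and 6.45 in aged and 7.17, 6.65 and 7.06 in young steady-state HSC. The groups overlapped through young replicate 2, and the difference was -0.38 (SE 0.19, adjusted p = 0.893). In transplanted HSC, Spi1 had levels of 6.52 and 6.63 in aged and 6.99 and 6.66 in young arrays. Both young arrays lay above both aged arrays, by a gap smaller than the spread of the young pair. Cebpa stood at 4.54, 4.46 and 4.46 in aged and 4.66, 4.65 and 4.64 in young steady-state HSC, and at 3.60 and 3.81 in aged and 4.18 and 4.92 in young transplanted HSC. Cebpa lay among the dimmest 25% of genes in every fit, so it was not tested.

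Of 13 other tested transcription factor genes with a role in myeloid cells, 2 rose with age in steady-state HSC and none fell. Over all genes 1.18% were called in that comparison. Cebpd, a C/EBP family factor induced in inflammation and granulocyte maturation, had levels of 6.44, 6.91 and 6.51 in aged and 5.23, 5.18 and 5.73 in young steady-state HSC (difference 1.24, SE 0.21, adjusted p = 0.0203). Id2, an inhibitor of E proteins, had levels of 9.47, 8.68 and 8.85 in aged and 7.60, 7.74 and 7.47 in young steady-state HSC (difference 1.40, SE 0.24, adjusted p = 0.0215). Neither gene's groups overlapped. Further probe sets of both genes had the same sign without a call, at 0.41 for Cebpd and 0.73 for Id2. In transplanted HSC none of the 13 was called with age, where 1.35% of all genes were called. The 4 lists of other granule genes, receptors, transcription factors and monocyte markers held no call for the difference between the age differences. That count of 0 is from limma across all genes.

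Transplanted HSC had lower levels than steady-state HSC of most granule and receptor genes of the set, on a background where most of the transcriptome differed. Averaged over age, 5 of 8 genes fell and none rose, where 69.9% of all genes were called and 50.1% were called lower. The difference was below 0 for all 8 and had a median of -0.98, against -0.46 over all genes. The share called is near the background, and the sizes below stand beside the median of all genes.

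**Figure D4:**
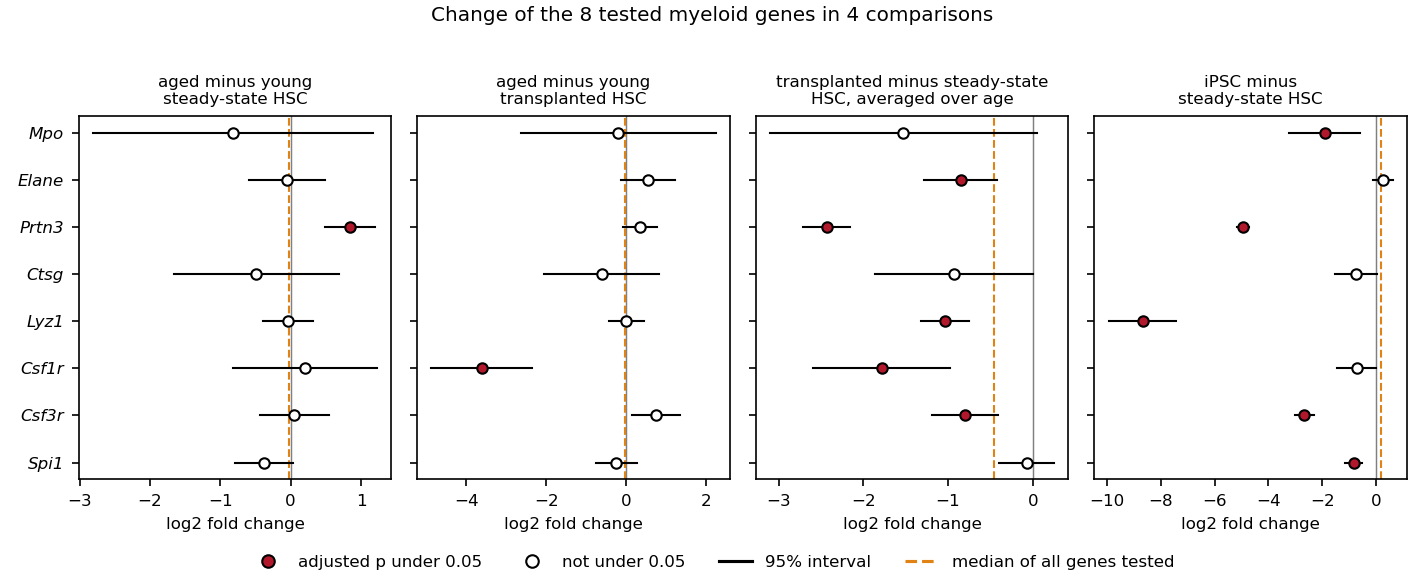
Log2 difference with its 95% confidence interval for each tested gene of the set in 4 comparisons, 1 per panel, with filled points at an adjusted p under 0.05 and open points otherwise. The Lyz1 point of the iPSC panel passed the filter only through HSC; the grey line marks 0 and the dashed line the median of all genes tested; transplanted minus steady-state differences run from -2.43 for Prtn3 to -0.07 for Spi1.

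Averaged over age, Prtn3 had the largest drop of the set after transplantation, although within the aged groups the Csf1r difference given below was larger. Its 4 transplanted arrays, 9.21 and 9.14 in aged and 9.05 and 8.61 in young, all lay more than 1 log2 below the 6 steady-state arrays, at 11.00 to 11.89. The difference was -2.43 (SE 0.13, adjusted p = 1.26e-07), or 5.41-fold, and it was -2.68 in the aged and -2.18 in the young groups. Elane fell by 0.85 (SE 0.19, adjusted p = 0.00262), with transplanted arrays at 3.84 to 5.03 and steady-state arrays at 5.46 to 5.58. The probe sets of the neighbours Prtn3 and Elane thus both gave lower levels after transplantation, while only Prtn3 was called with age. Elane levels in steady-state HSC were similar to those in ESC (5.41 and 5.60), which limits this contrast of the neighbours. It also limits the Elane fall, since its probe set showed no signal above ESC in steady-state HSC. The young transplanted mean of Elane, 4.39, lay under 4.49, the level marking the dimmest 25% of genes in that group. Mpo differed by -1.53 (SE 0.71, adjusted p = 0.0765) and Ctsg by -0.93 (SE 0.42, adjusted p = 0.0685). For both genes the transplanted and steady-state arrays overlapped, and their larger SE reflects the scatter between arrays given above.

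Lyz1 encodes lysozyme P, and Lyz2 is its near-identical paralog, the lysozyme of macrophages and neutrophils, so signal from both transcripts on the same probes cannot be separated here. Lyz1 had levels of 11.54 and 11.67 in aged and 11.64 and 11.57 in young transplanted HSC, and of 12.48 to 12.84 in steady-state HSC. It fell by 1.03 (SE 0.13, adjusted p = 3.7e-05), and a further probe set, 1439426_x_at, fell by 0.94. The third probe set, 1450822_at, was among the dimmest 25% in all 7 groups and was not tested. The Lyz2 probe set went the other way, with levels of 10.18 and 10.05 in aged and 10.52 and 11.27 in young transplanted HSC, against 9.86 to 9.99 in aged and 9.58 to 10.21 in young steady-state HSC. Lyz2 rose by 0.59 (SE 0.18, adjusted p = 0.013).

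Csf3r fell by 0.80 after transplantation (SE 0.17, adjusted p = 0.00206), and its transplanted arrays, at 6.10 to 7.16, lay below its steady-state arrays, at 7.22 to 7.80. Csf1r was lower by 1.78 on average over age (difference -1.78, SE 0.36, adjusted p = 0.00131), but the difference was -3.69 in the aged and 0.13 in the young groups. The other Csf1r probe sets fell as well, by 1.65 for 1419873_s_at and by 0.73 for 1423593_a_at. Their steady-state means did not exceed those in ESC, so neither gave signal above ESC. For 1419873_s_at these means were 6.42 in aged and 6.30 in young steady-state HSC and 6.46 in ESC. For 1423593_a_at they were 6.10, 5.91 and 6.44. For 1419872_at they were 6.93, 6.73 and 6.09, but aged steady-state replicate 3 (6.37) lay below Primogenix ESC (6.43). Spi1 had a difference of -0.07 (SE 0.15, adjusted p = 0.673) and was the only gene of the 8 whose difference lay above the median of all genes.

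Of 14 other granule genes tested, 10 fell and none rose after transplantation, where 50.1% of all genes were called lower. For 3 of the 14 (Lcn2, Cybb and Chil3) the transplanted mean lay among the dimmest 25% of genes, so they passed the filter through steady-state HSC; of the other 11, 7 fell. Chil3, a chitinase-like protein of myeloid granules, had levels of 3.12 and 3.82 in aged and 2.95 and 3.20 in young transplanted HSC, against 7.12, 7.58 and 8.83 in aged and 8.86, 8.01 and 7.47 in young steady-state HSC. Ngp differed by -4.19 (SE 0.42, adjusted p = 9.34e-06) and Ltf by -2.21 (SE 0.29, adjusted p = 6.67e-05), and for both every transplanted array lay below every steady-state array.

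Of 12 other receptor genes, 3 rose and 8 fell after transplantation, by the probe set that represents each. For Cd14, 1 of the 8, the transplanted mean lay among the dimmest genes, so it passed the filter through steady-state HSC. Without Cd14, 7 fell. Over all genes 50.1% were called lower. Il6ra, the interleukin 6 receptor gene, rose by 0.67, and by 1.30 on its other probe set. Csf2ra, the GM-CSF receptor alpha chain, rose by 1.04, with 0.36 and no call on its other probe set. Ifngr1, the interferon gamma receptor gene, differed by -1.88. Fcgr2b differed by -2.70, and its other tested probe sets by -1.91 and -0.72, all called.

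Of 13 other transcription factor genes, 2 rose and 9 fell by the same rule, where 50.1% of all genes were called lower. Several depended on the probe set, as did 63.4% of all genes with several tested probe sets. Runx1, which is needed for blood stem cell formation, had differences of 1.31, 2.17 and 0.41 on 3 probe sets called higher and of -1.77 on 1 called lower. Gata2, an HSC factor, differed by -1.43 on its representing probe set and by 2.30 on the other, both called, so neither gene has a settled direction. Irf5, an interferon regulatory factor gene of macrophages, rose by 1.61 on 1 probe set, with 0.05 on the other. Irf8, a monocyte and dendritic cell factor, differed by -1.63 on 1 probe set and by -0.36, without a call, on the other. Id2 differed by -3.02 on 1 and by -0.16, without a call, on another.

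Markers of other cell types differed in the same comparison. Of 9 tested monocyte and macrophage markers, 7 fell and 1, Lyz2, rose, where 50.1% of all genes were called lower. For 3 of the 9 (Cd14, Cd163 and Mrc1) the transplanted mean lay among the dimmest genes. These passed the filter through steady-state HSC, and of the other monocyte markers 4 fell. The summed intensity of the 12 measured monocyte and macrophage markers was 1373 to 2821 in transplanted and 1984 to 3625 in steady-state HSC. The HSC markers, all above the median of each array, summed to 4423 to 6768 in transplanted and 15215 to 19647 in steady-state HSC. By their representing probe sets 7 of 8 fell, with a median difference of -1.71. Of 7 tested megakaryocyte and platelet markers 4 fell and 1 rose, with a median of -1.43. Of 5 erythroid markers 1 fell and 1 rose, with a median of -0.57. The median was -0.98 for the 8 tested genes of the set and -0.46 over all genes. None of 9 mast cell, basophil and eosinophil markers lay above the median of any array. By the representing probe sets, 3 of 3 tested pluripotency markers and 3 of 5 T cell markers fell, and none rose. Of 4 B cell markers 1 fell, and of 5 fibroblast and feeder markers 2 rose and 1 fell. Esrrb, Cd8a and the B cell marker Igll1, counted among these falls, had transplanted means among the dimmest genes. They passed the filter through steady-state HSC, so the sizes of their differences are uncertain. Without them, 2 pluripotency, 2 T cell and 0 B cell markers fell. Esrrb differed by -2.85, Utf1 by -1.57 and Cd8a by -2.38. Their other tested probe sets differed by 0.20, 0.78 and 0.05. The 9 pluripotency markers summed to 158 to 169 in transplanted and 331 to 400 in steady-state HSC. The part of these differences in the values of the granule and receptor genes was not tested.

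In iPSC, no gene of the set was called between aged and young origin, 0 of 7 tested, where 0.00733% of all genes (1 gene) were called. An unadjusted limma p under 0.05 was reached by 679 genes, among them Prtn3 and Csf3r. Prtn3 had levels of 6.25 and 6.35 in aged-origin and 6.65 and 6.75 in young-origin iPSC, without overlap (difference -0.40, SE 0.13, adjusted p = 0.976). This is the opposite sign to the steady-state HSC difference. Csf3r had levels of 5.19 and 5.0 in aged-origin and 4.47 and 4.85 in young-origin iPSC (difference 0.44, SE 0.16, adjusted p = 0.976). Mpo stood at 5.14 and 5.0 in aged-origin and 4.97 and 4.88 in young-origin iPSC, without the scatter it had in HSC. None of the other granule genes, receptors, transcription factors or monocyte markers was called with the age of origin, out of 8, 10, 10 and 7 tested.

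Between iPSC and ESC, 0 of 7 genes were called, where 0.11% of all genes were called and 1737 had an unadjusted limma p under 0.05. Prtn3 stood at 6.25 to 6.75 on the 4 iPSC arrays and at 5.79 and 5.97 on the ESC arrays. All iPSC arrays lay above both ESC arrays, with a difference of 0.62 (SE 0.11, adjusted p = 0.0987). The ESC of the different suppliers disagreed on Lyz1. Probe set 1436996_x_at stood at 3.77 to 4.26 in iPSC, at 3.49 in Open Biosystems ESC and at 8.15 in Primogenix ESC. Probe set 1439426_x_at gave 2.52 to 2.92 in iPSC, 2.75 in Open Biosystems ESC and 7.21 in Primogenix ESC. Lyz2 stood at 4.89 to 5.67 in iPSC, at 5.51 in Open Biosystems ESC and at 6.83 in Primogenix ESC.

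The summed intensity of the 12 markers was 443 to 470 in iPSC, 517 in Open Biosystems ESC and 719 in Primogenix ESC, while 4 of the 12 in Open Biosystems ESC and 5 in Primogenix ESC lay among the dimmest 25% of genes of their array. Cd68, a lysosomal membrane protein of macrophages, stood at 5.34 to 6.27 in iPSC and at 7.12 and 7.76 in the ESC (difference -1.67, SE 0.21, adjusted p = 0.0211), and was the only called gene of the granule, receptor, transcription factor and monocyte lists. Fibroblast and feeder markers summed to 477 to 504 in aged-origin iPSC, 469 to 826 in young-origin iPSC and 746 to 763 in ESC. The part of the monocyte and feeder markers in the Lyz1 and Prtn3 values was not tested.

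Prtn3, Mpo, Csf3r and Spi1 had lower levels in iPSC than in steady-state HSC. The fit called 5 of 8 genes lower and none higher, where 76.4% of all genes were called and 34.7% were called lower. The other of these calls, Lyz1, passed the filter only through its level in HSC, so it is given as levels alone. Prtn3 stood at 6.25 to 6.75 in iPSC and 11.00 to 11.89 in steady-state HSC, a difference of -4.94 (SE 0.11, adjusted p = 4.17e-14), or 30.7-fold. Lyz1 stood at 3.77 to 4.26 in iPSC, among the dimmest 25% of genes, and at 12.48 to 12.84 in steady-state HSC. The groups of both genes were far from overlap.

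The receptors and Spi1 differed less. Csf3r stood at 4.47 to 5.19 in iPSC and 7.22 to 7.80 in steady-state HSC (difference -2.66, SE 0.16, adjusted p = 1.64e-09). Spi1 stood at 5.78 to 6.25 in iPSC and 6.45 to 7.17 in steady-state HSC, without overlap (difference -0.84, SE 0.15, adjusted p = 0.000136). Mpo differed by -1.92 (SE 0.61, adjusted p = 0.0106), with every iPSC array, at 4.88 to 5.14, below every steady-state array, at 5.47 to 8.72. Ctsg had a difference of -0.76 (SE 0.36, adjusted p = 0.0709) and Elane one of 0.25 (SE 0.17, adjusted p = 0.191). Elane stood at 5.53 to 5.88 in iPSC and 5.46 to 5.58 in steady-state HSC, and its mean was not lower in the pluripotent cells.

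Csf1r in iPSC depended on the probe set. Probe set 1419872_at differed by -0.73 (SE 0.33, adjusted p = 0.0602), 1419873_s_at by 0.09, and 1423593_a_at by 0.60 (adjusted p = 0.000702 among all probe sets). Counts over the other lists are not given for this comparison, since 5 of 13 granule genes, 2 of 12 receptor genes and 3 of 13 transcription factor genes tested had iPSC means among the dimmest 25% and passed the filter through HSC. Srgn, the granule proteoglycan serglycin, was 1 of these, at 4.39 to 4.78 in iPSC and 12.92 to 13.11 in steady-state HSC. Serpinb1a, an inhibitor of elastase-type proteases that was not among them, differed by -4.51, and by -2.21 on its other probe set. Klf4, which is also a pluripotency factor, rose by 2.45 with overlapping arrays and by 3.79 on its other probe set, and Cebpd rose by 1.39 and 0.56. Myb, a factor of blood progenitors, differed by -4.49, -5.20 and -6.83 on its 3 probe sets.

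Over all 7 groups, the mean level of Prtn3 ran from aged steady-state (11.86) through young steady-state (11.02), aged transplanted (9.18), young transplanted (8.83) and the iPSC (6.30 in aged-origin, 6.70 in young-origin) to ESC (5.88). The arrays of no 2 groups overlapped, but the gap between aged and young transplanted HSC was under the spread of the young pair, and it did not pass the test. Lyz1 ran from the steady-state groups (12.63 in aged, 12.66 in young) through the transplanted groups (11.61 in each) to iPSC (4.06 in aged-origin, 3.87 in young-origin), with ESC at 5.82 ± 3.30 (SD, n = 2). Within each of these pairs the arrays overlapped, as did ESC and iPSC through the Open Biosystems array. Csf3r ran from the steady-state groups (7.57 aged, 7.52 young) through aged transplanted (7.11) and young transplanted (6.37) to iPSC (5.10 in aged-origin, 4.66 in young-origin) and ESC (4.90), with overlap between the steady-state groups and between the ESC and each iPSC group.

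Mpo averaged 6.50 in aged and 7.32 in young steady-state HSC, 5.29 in aged and 5.49 in young transplanted HSC, 5.07 in aged-origin and 4.92 in young-origin iPSC, and 5.16 in ESC. Its transplanted arrays reached from below to above all 6 pluripotent arrays, so no transplanted group stood apart from the pluripotent cells. Ctsg had means of 5.55 in aged and 6.04 in young steady-state HSC and lay between 4.56 and 5.17 in the other 5 groups. Elane had means of 5.48 to 5.82 in the pluripotent and steady-state groups, 4.93 in aged transplanted and 4.39 in young transplanted HSC. Spi1 means were 6.58 to 6.96 in the 4 HSC groups and 5.82 to 6.11 in the iPSC and ESC, and Cebpa means were 3.71 to 4.83 over all 7 groups.

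The genes whose levels were most like those of a member over the 10 HSC arrays were taken as the 3 with the highest Pearson r of log2 level. The 10 arrays share the split between transplanted and steady-state HSC, which a gene can follow for any reason, so r is given as a description. For Mpo they were Capzb (0.90), 4921517D22Rik (0.90) and Ctsg (0.89), the only case of a gene of the set among them. For Ctsg they were Endou (0.97), Paip2 (0.93) and Slc41a3 (0.93). For Prtn3 they were Klhl4, Psme4 and Etfbkmt, each at 0.99, and for Elane Krt80 (0.98), Hagh (0.98) and Armcx2 (0.97). For Lyz1 they were Utf1, 1700003E16Rik and Eif1ax, each at 0.99. For Csf1r they were Phf13 (0.98), Babam2 (0.97) and Cnot9 (0.97), and for Csf3r Cln3, Entpd5 and 1810062G17Rik, each at 0.96.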

How the data were processed

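The 16 Affymetrix arrays have 1 channel each. The authors deposited 1 table of linear intensity values, with 45101 probe sets. The summarisation and normalisation behind it are not given in the sources used here. Per the labels, a QIAGEN microRNeasy kit served for RNA extraction. There are no detection calls, and precision is limited by having 2 or 3 arrays in a group.

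Intensities were put on the log2 scale, and the authors' scaling was kept. A probe table gave 34945 probe sets 1 gene symbol, 932 several and 9160 none, and 64 were controls. All 9 gene identifiers of the set were found in the RefSeq table. Each gene was represented by its single-symbol probe set with the highest mean over all arrays, which for Lyz1 is 1436996_x_at and for Csf1r 1419872_at.

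Linear models (lmFit, then eBayes, of limma 3.58.1 under R 4.3.3) were fitted on the 10 HSC arrays, on the 6 iPSC and ESC arrays, or on all 16 for iPSC against HSC, with 6, 3 and 9 residual degrees of freedom. Each fit kept the 13645 genes at or above its 25th percentile of mean level. Every adjusted p is from limma with Benjamini-Hochberg adjustment over all of these, unless probe sets are named. Cebpa was left out of every fit by this filter, and Lyz1 out of the iPSC and ESC fit.

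The genes and the lists of other granule, receptor, transcription factor and cell type marker genes were chosen with earlier results of these data known. Named from each list were the called genes with the smallest p, at most 3 per direction and comparison. Genes most like a member were sought for members that passed the filter in the HSC fit and spanned over 1 log2 on its arrays. Deviations of same-numbered arrays had no consistent sign, with correlations of 0.15, -0.20 and 0.19 for the steady-state numbers. They were -0.16 in transplanted HSC and -0.05 in iPSC. Steady-state numbers 1 and 3 exceeded the pairing threshold of 0.1, while differently numbered steady-state arrays ran from -0.31 to 0.21. The arrays were not treated as pairs in the main fits, so pairing by number remains uncertain. Counts and fold changes of listed genes use the representing probe set unless another is named. Fits were tested on simulated data. Alternatives were other scalings, a pseudocount, other filters, probe set rules, priors and weights, other sets of arrays, the replicate number as a block, and each array left out. Figures were drawn with matplotlib 3.10.9.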

Additional observations from a re-analysis of the deposited data

How the results depend on the processing

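Of 327 refits of the 32 printed fold changes under other settings, 290 kept direction and side of the threshold, 20 lost a call, 17 gained one and none changed sign. Of 356 refits without 1 array, 316 kept both, 24 lost a call, 15 gained one and 1 changed sign: Spi1, transplanted against steady-state, was 0.0099 without young transplanted replicate 2 (adjusted p = 0.958), within a range of -0.1543 to 0.0099 over the 10 arrays left out. The causes were not tested.

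The count of genes called with age in steady-state HSC (1) became 0 with quantile normalisation, the replicate block and every probe set on its own, and ranged over 0 to 1 with 1 array left out. In transplanted HSC the count (1) became 0 with a pseudocount of 64, the mean of probe sets, the filter at the 50th percentile, array weights, the replicate block and only the groups compared, and ranged over 0 to 2 with 1 array left out. For the difference of the age effects (0) it became 1 with all 16 arrays in 1 fit, and ranged over 0 to 2 with 1 array left out. For the averaged age effect (2) it became 0 with quantile normalisation, the filter at the 50th percentile, array weights, the replicate block and every probe set, and 1 with centred medians, the pseudocount, no filter and the mean of probe sets; it ranged over 0 to 3 with 1 array left out. After transplantation (5) it became 3 with the filter at the 50th percentile, which leaves fewer genes tested, and ranged over 5 to 7 with 1 array left out. In iPSC against steady-state HSC (5, Lyz1 included) it became 2 with that filter and 8 with array weights and with only the groups compared, and ranged over 5 to 8 with 1 array left out. It remained at 0 in iPSC by origin and in iPSC against ESC under all alternatives run.

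With the replicate block, Prtn3 in steady-state HSC had an adjusted p of 0.105 and Csf1r in transplanted HSC of 0.0596, and the counts over all genes were 121 for steady-state age (161 without), 27 for transplanted age (184), 1 for the difference of the age effects (17), 107 for the averaged age effect (249) and 8830 after transplantation (9534). Crossing the transplanted numbers, chosen after seeing the data, gave 610, 96 and 560 calls for transplanted age, the difference and the average, and 1 gene of the set called for the difference. Prtn3 in steady-state HSC kept a difference of 0.83 to 0.87 and was called in 13 of 21 alternatives, with adjusted p between 0.000414 and 0.158. Csf1r in transplanted HSC ranged from -4.72 to -1.38 and was called in 14 of 21, with -1.38 under the pseudocount and -1.40 (adjusted p = 0.06) for the mean of probe sets. The Csf1r difference after transplantation was -0.59 (adjusted p = 0.0602) with the pseudocount, and Lyz1 lost its call with all 16 arrays in 1 fit (adjusted p = 0.124). Mpo and Ctsg after transplantation were called in 6 of 20 alternatives each. The median of all genes after transplantation, -0.46, moved to -0.66 with centred medians and -0.26 with the pseudocount.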

Other observations

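Among transcription factor genes of the myeloid list, Klf4 and Egr2, zinc finger factors that are also rapidly induced by stimulation, varied between steady-state arrays in a way unlike the granule genes. They were chosen after their values were seen. Klf4 had levels of 11.40, 7.58 and 6.01 in aged and 11.13, 7.78 and 7.83 in young steady-state HSC. Egr2 had levels of 8.54, 5.07 and 4.48 in aged and 8.31, 4.05 and 4.84 in young steady-state HSC. For both genes aged replicate 1 and young replicate 1 stood above the other 4 arrays, whereas Ngp and S100a8 were lower in aged replicate 1 (8.49 and 8.38) than in young replicate 1 (9.91 and 9.93). In transplanted HSC, Klf4 stood at 4.08 and 4.76 in aged and 6.18 and 6.42 in young arrays.

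Cathepsin S (Ctss), a lysosomal protease of antigen-presenting cells, had levels of 10.81, 9.72 and 8.69 in aged and 10.56, 9.56 and 9.83 in young steady-state HSC. In transplanted HSC it stood at 4.57 and 5.70 in aged and 4.96 and 5.36 in young arrays, a transplanted minus steady-state difference of -4.71 (SE 0.39, adjusted p = 2.66e-06, limma). Mpeg1, the perforin-2 gene of macrophages, had a difference of -3.39 (SE 0.19, adjusted p = 1.93e-07, limma) in the same comparison.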
